A study of Drosophila melanogaster with 4 samples.

Results

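Chromosome 4 of Drosophila melanogaster was taken as 1 unit and all its regions of H3K9me2 enrichment were described from the proximal to the distal end. The members were all rows on chromosome 4 in the deposited lists of enriched regions, leaving out rows named as depletion, of which chromosome 4 had 0. Replicate 1 had 124 such regions out of 3667 in the whole genome (3.38%), replicate 2 had 154 out of 4728 (3.26%), and the combined list of the replicate set had 109 out of 5614 (1.94%). The rule used the chromosome name alone and no measured value, although it was chosen with earlier results of these data known. The 3 lists were kept apart throughout.

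H3K9me2, dimethylated lysine 9 of histone H3, is a mark of silent and compact chromatin that is bound by the heterochromatin protein HP1a. Chromosome 4 is the smallest chromosome of the fly. It is known for carrying this mark and HP1a along most of its length, deposited there mainly by the methyltransferase Eggless, while many of its genes are active and are bound by the chromosome-specific protein POF. Developmental regulators such as eyeless and cubitus interruptus lie on it.

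The material was nuclei of wild-type Oregon-R larvae of the last larval instar, a mixture of all larval cell types, with no treatment. Chromatin immunoprecipitation followed by sequencing (ChIP-seq) with a single H3K9me2 antibody gave 2 libraries, each called by the authors against the input library of the same number, that is, against sheared chromatin taken without immunoprecipitation. Separate larval collections are not stated in the labels, and the replicate spread may thus be only technical. Positions are those of FlyBase release 5, on which chromosome 4 measures 1351857 bp, and low coordinates are proximal (towards the centromere). Each region carries the authors' enrichment score, whose scale is not stated, and it is used here only to order and describe regions. The lists give no read counts, and the depth of the libraries is unknown. Two-sided permutation over 2 lists cannot give a p below 0.5, and all comparisons are therefore given as values with the spread between lists. Which genes or repeats lie under the regions and gaps was not determined here, because the gene table at hand is on another genome release.

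H3K9me2 regions covered most of chromosome 4 as a series of blocks, interrupted by many gaps that were mostly short. Covered length was 1122 kb in replicate 1 and 1076 kb in replicate 2, which left 230.2 kb and 276.3 kb uncovered. The median region measured 5402.5 bp in replicate 1, with quartiles of 2610.0 and 12398 bp, and 4558 bp in replicate 2, with quartiles of 2203 and 9699 bp. Replicate 2 therefore held more and shorter blocks over slightly less sequence. The shortest regions measured 1306 and 1310.0 bp and the longest 36.6 and 37.6 kb in replicates 1 and 2.

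Most of the covered sequence lay in a minority of long blocks. Regions of at least 10 kb numbered 38 in replicate 1 (30.6% of its regions) and held 67.2% of its covered bases. In replicate 2 there were 37 (24.0%), with 58.0% of the covered bases. Their number was thus nearly equal in the replicates, whereas regions under 2 kb numbered 19 in replicate 1 and 32 in replicate 2. These short regions held 2.68% and 4.92% of the covered bases. A share of 50% of the covered bases lay in regions of at least 15.2 kb in replicate 1 and of at least 11.9 kb in replicate 2.

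**Figure D1:**
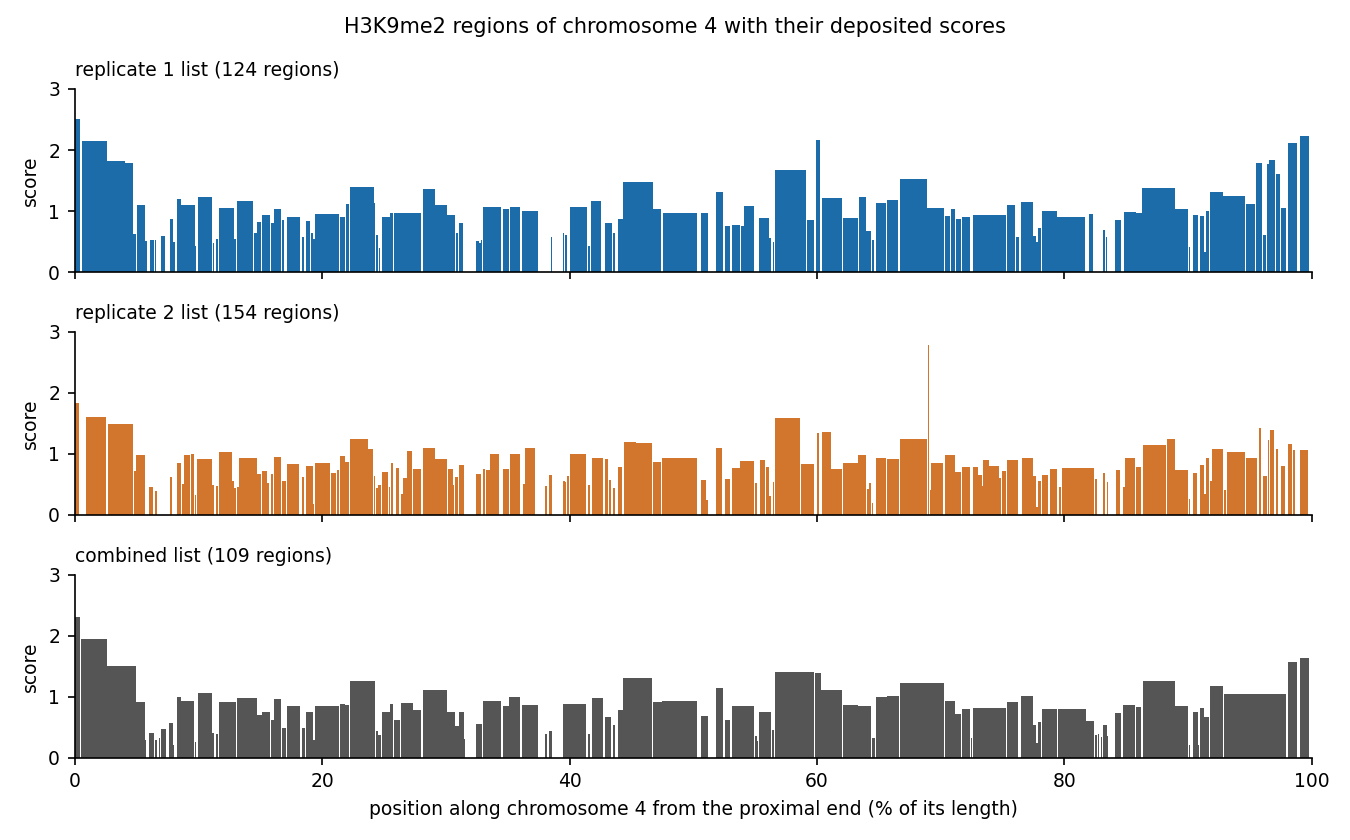
Each bar is an H3K9me2 region of chromosome 4, with its width to scale along the chromosome (x axis, percent of the length from the proximal end) and its height giving the deposited score (y axis, score units), for the lists of replicate 1 (124 regions), replicate 2 (154) and the combined list (109). Blocks fill most of the chromosome in all 3 lists, scores are high at the proximal end, and the single tall narrow bar of replicate 2 is the region of score 2.79.

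Longer regions had higher scores within each list. The median score of regions of at least 10 kb was 1.12 in replicate 1 and 0.935 in replicate 2, against 0.496 and 0.459 for regions under 2 kb. No region of at least 10 kb scored below 0.893 in replicate 1 or below 0.736 in replicate 2. Spearman's rho between length and score was 0.714 over the 124 regions of replicate 1 and 0.685 over the 154 regions of replicate 2. These are descriptions across regions of 1 library, whose length and score came from the same calling.

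The longest blocks were partly split in the other list. In replicate 1 the longest region ran from 981401 to 1018018 (36.6 kb, score 0.928). Replicate 2 covered 96.2% of it in 7 regions with a mean score of 0.762. The region from 643147 to 679621 in replicate 1 (36.5 kb, score 0.968) corresponded to a single region in replicate 2, the longest of that list, from 642023 to 679581 (37.6 kb, score 0.930). These adjoining ranks thus differed in whether the block was continuous in both libraries.

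The next longest blocks of replicate 1 ran from 1166735 to 1202031 (35.3 kb, score 1.38), from 764948 to 799511 (34.6 kb, score 1.66) and from 598985 to 631470 (32.5 kb, score 1.47). Each of these corresponded to 2 regions in replicate 2, which covered 96.7%, 97.8% and 93.8% of them. In replicate 2 the next longest ran from 1078852 to 1113538 (34.7 kb, score 0.765), from 901839 to 931923 (30.1 kb, score 1.24), from 764916 to 792708 (27.8 kb, score 1.59) and from 36672 to 64123 (27.5 kb, score 1.49). Replicate 1 covered at least 97.1% of the last 3 but only 85.3% of the first, in which it had a gap. In all, 35 of the 124 regions of replicate 1 overlapped at least 2 regions of replicate 2, and 1 overlapped as many as 7. In the other direction, 19 of the 154 regions of replicate 2 overlapped at least 2 regions of replicate 1.

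Where a block was a single region in both lists, its edges lay close together. There were 61 such pairs, in which 63 of the 122 edges (51.6%) differed by at most 200 bp, with a median distance of 194 bp and a highest one of 4.24 kb. The region of replicate 1 was the longer one in 30 of the 61 pairs, and it had the higher score in 51. The region of replicate 2 lay inside that of replicate 1 in 21 pairs, and the reverse held in 12. By count alone, replicate 2 did not have the shorter region in most pairs by a clear margin. The count does not give the summed length, so it does not show where the smaller covered length of replicate 2 arose.

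Gaps between blocks were mostly short. Replicate 1 had 123 gaps with a median of 1183 bp, and replicate 2 had 153 gaps with a median of 1045 bp. Gaps under 500 bp numbered 30 and 46, gaps from 500 to under 2000 bp 61 and 63, gaps from 2000 to under 5000 bp 23 and 34, and gaps of at least 5000 bp 9 and 10 in replicates 1 and 2. The replicates thus differed most in the number of the shortest gaps and of those from 2000 to under 5000 bp, and little in the other classes. The gaps of at least 5000 bp, although few, held 37.0% of all gap bases in replicate 1 and 34.2% in replicate 2, whereas those under 500 bp held 2.94% and 3.65%. The first region began within 15 bp of the proximal end in replicate 1 and within 36 bp of it in replicate 2, and the last region left 3.21 kb and 4.13 kb at the distal end uncovered.

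**Figure D2:**
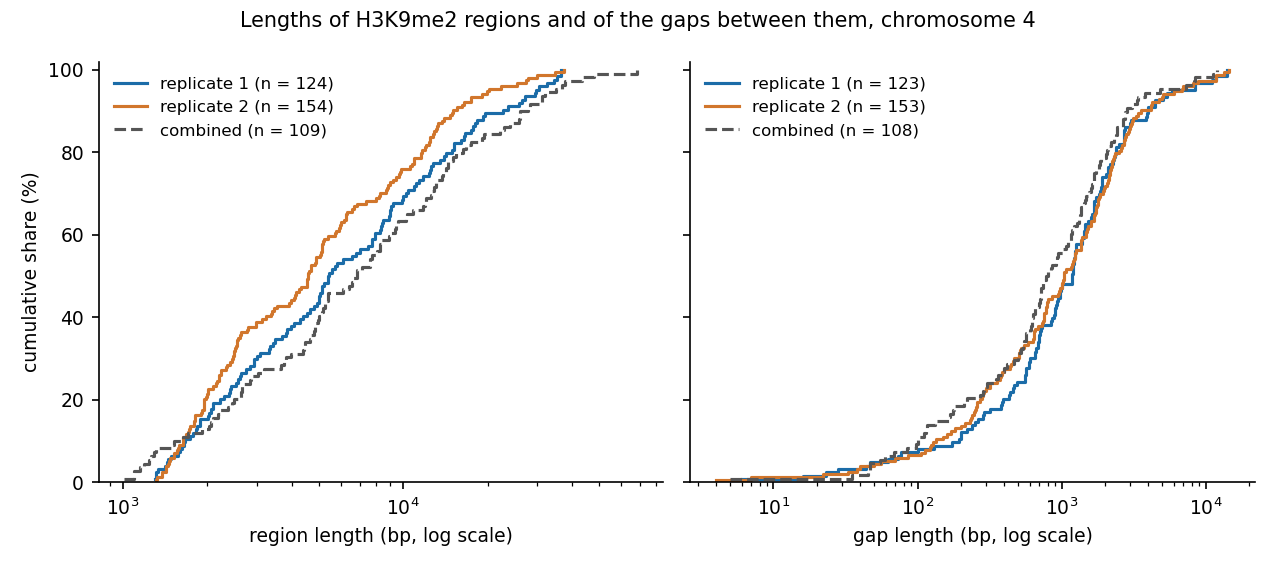
Cumulative share of regions (left, percent) by region length in bp and of gaps (right, percent) by gap length in bp, both on log axes, for the lists of replicate 1, replicate 2 and the combined list. The replicate 2 curve of region length lies left of that of replicate 1 over most of its course (median 4558 against 5402.5 bp), while the gap curves lie close together above 1000 bp.

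By an overlap of at least 1 bp, long gaps recurred in both replicates and short ones often did not. Of the 123 gaps of replicate 1, 101 (82.1%) overlapped a gap of replicate 2 by at least 1 bp, and of the 153 gaps of replicate 2, 101 (66.0%) overlapped a gap of replicate 1. Among gaps of at least 1000 bp the shares were 61 of 65 (93.8%) and 72 of 81 (88.9%), and among gaps of at least 2000 bp 31 of 32 (96.9%) and 42 of 44 (95.5%). All 11 gaps of at least 4000 bp in replicate 1 and all 15 in replicate 2 recurred. A longer gap also has more room to overlap another, so these shares rise with length by construction to some degree. When at least 50% of both gaps had to overlap, 62 gaps of replicate 1 (50.4%) and 62 of replicate 2 (40.5%) recurred, and the shares were 7 of 9 and 7 of 10 for gaps of at least 5000 bp.

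Recurring gaps were longer than those seen in 1 list. Their median was 1379 bp in replicate 1 and 1721 bp in replicate 2, against 270.0 bp for the 22 non-recurring gaps of replicate 1 and 318 bp for the 52 of replicate 2. In 90 cases a single gap in each list faced a single gap in the other. Of their 180 edges 91 (50.6%) differed by at most 200 bp. Sequence uncovered in both replicates made up 107 stretches, 179.9 kb in all or 13.3% of the chromosome, which made up 78.1% of the bases left uncovered in replicate 1 and 65.1% in replicate 2. A further 96.4 kb (7.13%) was covered in replicate 1 only and 50.4 kb (3.72%) in replicate 2 only.

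The longest stretches without called H3K9me2 in either replicate are described here in 4 places along the chromosome. This grouping is loose in the second place, where 67.9 kb of mostly covered sequence parted the first stretch from the next. Stretches within the other places lay 5.05 to 7.61 kb apart. The 9 stretches of at least 4 kb summed to 69.5 kb, which was 38.6% of all sequence uncovered in both lists. With the chromosome divided into 3 parts of equal length, from proximal to distal, 3, 4 and 2 of them lay in each, with 22.8, 33.0 and 13.7 kb. The 107 stretches of any length had a median of 1019 bp and summed to 59.0, 70.2 and 50.7 kb in the same parts. The middle part thus held the most, both of long and of all such sequence.

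The most proximal place held a stretch from 89762 to 93890 (4.13 kb) and one from 98942 to 104277 (5.34 kb). In replicate 2 they formed a single gap of 14.5 kb, the longest gap of that list. In replicate 1 a region of 5051 bp with a score of 0.585 separated them (93891 to 98941), and it was the longest of the 4 regions of replicate 1 without any overlap in replicate 2. Whether this sequence was called enriched thus differed between the libraries.

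The second place held the longest stretch of all, from 425069 to 438435 (13.4 kb). It was a gap of 14.1 kb in replicate 1, the longest of that list, and of 13.4 kb in replicate 2. The block before it scored 0.798 in replicate 1 and 0.812 in replicate 2, and the block after it scored 0.514 and 0.665. The list medians were 0.929 and 0.761, so the block after the stretch lay below the median in both lists and the block before it in replicate 1 alone. The next 68 kb or so were covered over 90.3% in replicate 1 and 78.2% in replicate 2. Beyond them, stretches followed from 506287 to 514434 (8.15 kb) and from 522160 to 533660 (11.5 kb). The more distal of these had nearly the same edges in both lists, with gaps of 11.8 kb in replicate 1 and 11.7 kb in replicate 2.

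Between these 2 stretches lay a small island. Replicate 1 had a single region there of 1619 bp with a score of 0.568 (520240 to 521858). Replicate 2 had 2 regions, of 1807 bp with a score of 0.480 (514435 to 516241) and of 3969 bp with a score of 0.649 (518191 to 522159). The island was covered over 21.0% in replicate 1 and 74.8% in replicate 2, so that only its distal part was common to both.

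The third place held stretches from 679622 to 684549 (4.93 kb) and from 692159 to 700558 (8.40 kb). Their sizes differed little between lists, with gaps of 5.06 and 8.40 kb in replicate 1 and of 4.97 and 8.85 kb in replicate 2. The first one directly followed the block that ran unbroken for over 36 kb in both lists. The block between them scored 0.974 over 7476 bp in replicate 1 (684683 to 692158), against 0.570 over 4888 bp and 0.240 over 1721 bp in replicate 2, so this block was present in both lists but was weak and split in replicate 2.

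The fourth and most distal place held stretches from 1116839 to 1123448 (6.61 kb) and from 1129344 to 1136434 (7.09 kb). In replicate 1 the gaps measured 11035 and 8479 bp, and in replicate 2 6802 and 8114 bp. Short regions of low score stood between them, at 0.688 and 0.574 in replicate 1 and at 0.684 and 0.542 in replicate 2. A stretch of 3.21 kb at the distal end of the sequence came next in length, and all others were at most 3.01 kb long.

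**Figure D3:**
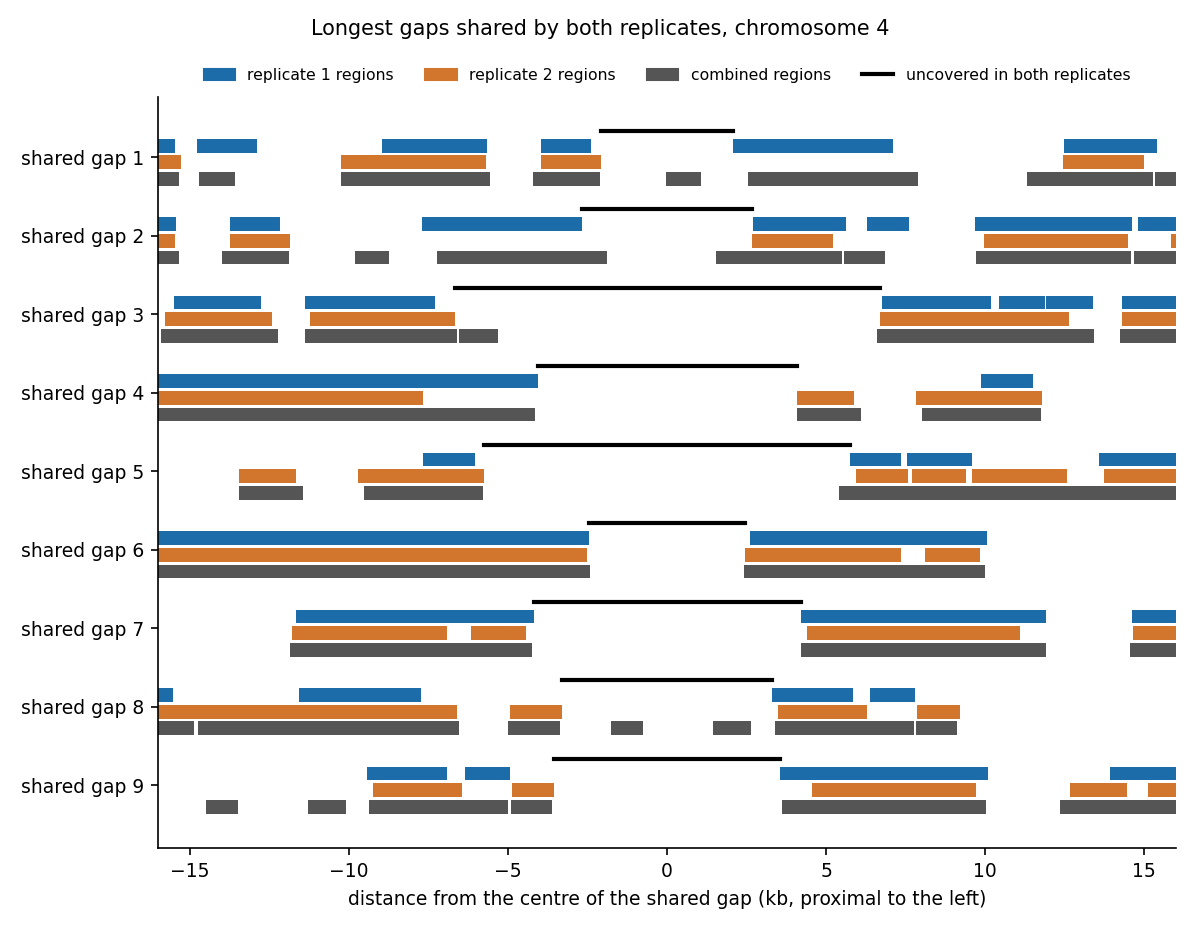
The 9 stretches of at least 4 kb that were uncovered in both replicates, from the most proximal (shared gap 1, top) to the most distal (shared gap 9, bottom), each centred at 0 on the x axis (distance in kb, proximal to the left). Coloured bars are the regions of replicate 1, replicate 2 and the combined list, and black lines are the stretches uncovered in both replicates, which measure between 4.13 and 13.4 kb; the combined list has regions inside some of them.

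Many, but not all, of the regions beside these long stretches had low scores. Regions within 2 kb of one had a median score of 0.688 in replicate 1 (15 regions) and of 0.605 in replicate 2 (16 regions), against 0.949 for the other 109 regions of replicate 1 and 0.786 for the other 138 of replicate 2. Their median lengths were 3441 and 2663 bp, against 5705 and 4677 bp. In replicate 1, 4 of the 15 regions scored above the list median, and in replicate 2, 3 of the 16. The highest of them, at 1.31 in replicate 1 and 1.10 in replicate 2, followed the stretch from 692159 to 700558. This division was made after the values were seen and was given no test.

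Few long gaps belonged to 1 replicate. The longest gap of replicate 1 that replicate 2 covered completely ran from 1104603 to 1108565 (3963 bp), inside the block of replicate 2 from 1078852 to 1113538. The next longest measured 1261 and 1197 bp. In replicate 2 the longest such gaps ran from 354507 to 356812 (2306 bp), inside a block of replicate 1 of 29.6 kb with a score of 0.975, from 1291856 to 1293858 (2003 bp) and from 582498 to 584096 (1599 bp). Completely covered gaps numbered 22 in replicate 1 and 52 in replicate 2.

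Nearly every region of 1 replicate met a region of the other. An overlap of at least 1 bp was found for 120 of the 124 regions of replicate 1 (96.8%) and for 150 of the 154 of replicate 2 (97.4%). The lists covered 83.0% and 79.6% of the chromosome, so that such an overlap was likely wherever a region lay. These shares therefore say little about how well the replicates matched. With at least 50% of both regions overlapping, 99 remained in each list, 79.8% of replicate 1 and 64.3% of replicate 2. The 4 regions of replicate 1 alone measured 5051, 1878, 1416 and 1307 bp, with scores of 0.585, 0.513, 0.574 and 0.496. The 4 of replicate 2 alone measured 2503, 1807, 1636 and 1325 bp, with scores of 0.529, 0.480, 0.589 and 0.542. All 8 had scores below the median of their list, which was 0.929 in replicate 1 and 0.761 in replicate 2.

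Coverage along the chromosome was broad, with a marked low in its middle part. In windows of 100 kb it ranged from 58.4% to 93.0% in replicate 1 and from 58.4% to 90.9% in replicate 2, and 8 of the 14 windows were covered over at least 80% in both. The lowest window was the same in both lists, from 500001 to 600000, at 58.4% ± 0.0170 (SD, n = 2), and it holds the island and both long stretches around it. This small SD hides opposite differences within the window. Its first 50 kb were covered over 40.1% in replicate 1 and 46.3% in replicate 2, and its last 50 kb over 76.6% and 70.4%. Coverage was also low in the window from 1100001 to 1200000, at 72.5% ± 2.10, and in that from 400001 to 500000, at 74.9% ± 3.51. The last window, which is 51.9 kb long, was covered over 68.1% ± 12.3, with a wide spread between lists. The window from 900001 to 1000000 had the highest mean over both lists, at 90.9% ± 0.00354 (SD, n = 2 for each). Opposite differences cancelled here too, with 95.4% and 93.6% in its first 50 kb and 86.4% and 88.2% in its last, in replicates 1 and 2. This window was also the highest in replicate 2, whereas in replicate 1 the next window, from 1000001 to 1100000, was the highest at 93.0%.

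The 3 parts of equal length differed little. From proximal to distal, coverage was 81.0% ± 3.62, 79.8% ± 0.826 and 83.0% ± 2.78, and the mean score weighted by covered bases was 1.06 ± 0.146, 1.04 ± 0.116 and 1.04 ± 0.181 (SD, n = 2 for each). The distal minus the proximal part gave a score difference of 0.00649 in replicate 1 and -0.0427 in replicate 2, so that the lists differed in sign. In coverage this difference was 1.44 percentage points in replicate 1 and 2.63 in replicate 2, with a mean of 2.03 ± 0.840 (SD, n = 2). It had the same sign in both lists. Each value was less than the SD of coverage between replicates within either of these parts, which is not the spread of the difference itself. With the 50% of regions scoring highest in each list, the coverage difference was -4.17 points in replicate 1 and 6.41 in replicate 2. With the median over regions in place of the weighted mean, the score difference was 0.121 in replicate 1 and 0.0696 in replicate 2, and with the outer 100 kb at either end left out it was 0.0498 and 0.0389. A direction from the proximal to the distal end thus depended on how scores were summarised. The middle part had the fewest regions, at 35 in replicate 1 and 45 in replicate 2. Its median region length was 7924 bp in replicate 1 and 5170.0 bp in replicate 2, against 3749 and 4102 bp in the proximal part and 5705 and 4618.5 bp in the distal part.

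**Figure D4:**
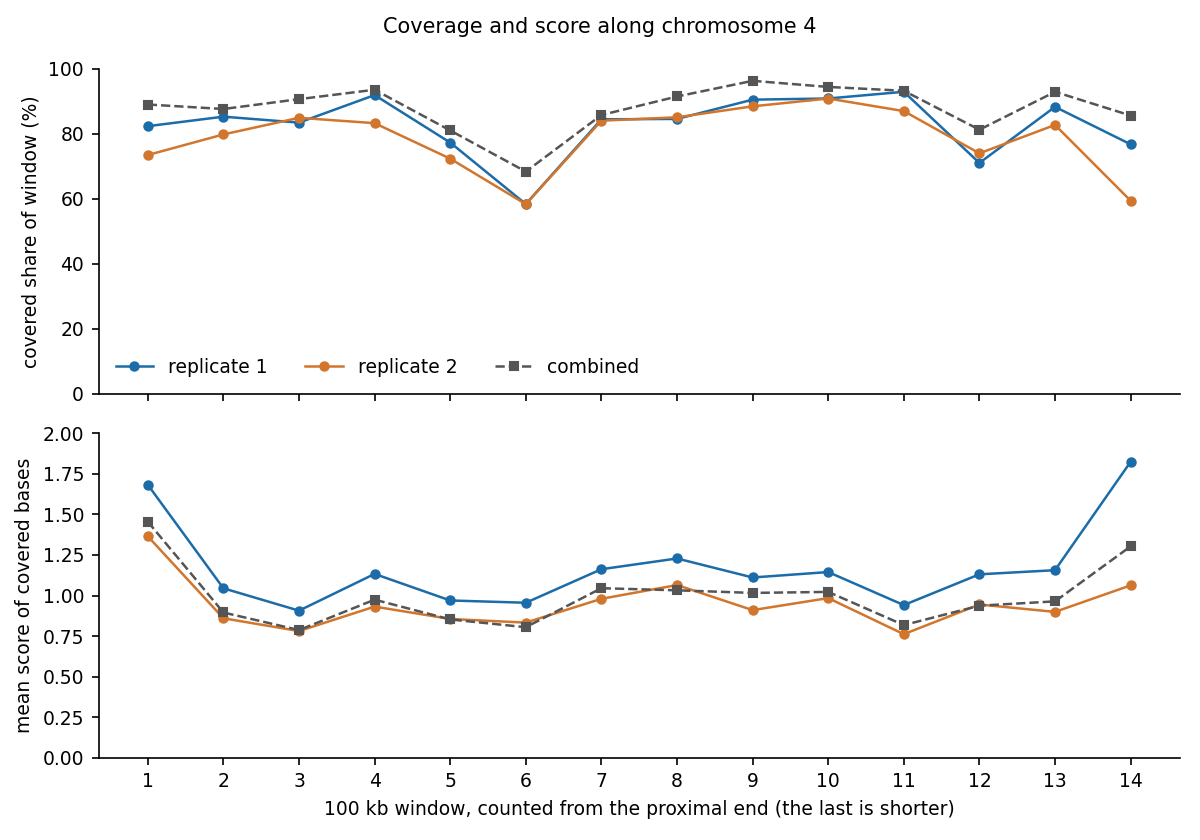
Share of each 100 kb window covered by H3K9me2 regions (top, percent) and mean score weighted by covered bases (bottom, score units), for 14 windows from the proximal end, the last one 51.9 kb long, in the lists of replicate 1, replicate 2 and the combined list. Coverage dips to 58.4% in window 6 in both replicates, and the score is highest in the first window in replicate 2 (1.37) and in the last one in replicate 1 (1.82).

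The highest window scores lay at both ends in replicate 1 and at the proximal end in replicate 2. The first window had a mean score of 1.68 in replicate 1 and 1.37 in replicate 2, and the last one of 1.82 and 1.06. The 12 windows between them ranged from 0.907 to 1.23 in replicate 1 and from 0.762 to 1.06 in replicate 2. The first window thus stood above all inner windows in both lists. The last one stood clearly above them in replicate 1 but level with the highest inner window, at 1.06, in replicate 2. With windows of 50 kb, the inner one from 750001 to 800000 reached 1.27 in replicate 2, above the last.

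At the proximal end the scores fell in steps. In replicate 1 the first 4 regions scored 2.51 (16 to 5406), 2.15 (7912 to 35035), 1.82 (35596 to 54887) and 1.78 (55088 to 63513), and the next one scored 0.630 (64109 to 66685). In replicate 2 the first 3 scored 1.84 (37 to 5186), 1.61 (12149 to 34429) and 1.49 (36672 to 64123), and the next one scored 0.713 (64370 to 66808). Both lists therefore placed a drop at about the same position, between 63513 and 64370. The gap after the first region was longer in replicate 2, which began its second region at 12149, against 7912 in replicate 1.

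Sparse and weak enrichment followed this proximal block. From 64001 to 110000, a stretch bounded after the values were seen, coverage was 51.8% ± 7.87 and the weighted mean score 0.746 ± 0.00502, against 89.8% ± 6.05 and 1.80 ± 0.321 in the first 64 kb (SD, n = 2 for each). It held 8 regions in replicate 1, with scores from 0.496 to 1.10, and 5 in replicate 2, with scores from 0.393 to 0.976. Beyond it, from 110001 to 1291857, coverage was 82.7% ± 1.36 with a weighted mean score of 0.989 ± 0.122 (SD, n = 2 for each). The weak stretch lay below this interior as a whole, with coverage of 57.4% in replicate 1 and 46.3% in replicate 2, against 83.6% and 81.7%. Interior windows of 50 kb went lower in replicate 1, at 40.1% from 500001 to 550000 and 44.2% from 1100001 to 1150000. The same windows were covered over 46.3% and 56.5% in replicate 2.

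At the distal end, blocks of high and low score followed each other closely. In the last 60 kb, from 1291858, replicate 1 had 8 regions with a median length of 5368.5 bp and scores from 0.601 to 2.23. Replicate 2 had 9 regions with a median length of 4074 bp and scores from 0.633 to 1.42. In replicate 1 the scores ran 1.79, 0.601, 1.78, 1.84, 1.61, 1.05, 2.11 and 2.23 towards the tip. The 2 highest of them belonged to the longest blocks there, of 10378 and 9981 bp. A weak region near 1300 kb thus interrupted the series in replicate 1. In replicate 2 a region at the same place, from 1298979 to 1303052, had a score of 0.633, between neighbours of 1.42 and 1.23.

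The distal end was also where the replicates differed most. Weighted mean score there was 1.78 in replicate 1 and 1.07 in replicate 2, and coverage was 77.9% and 56.7%. In the last window the replicates differed by 0.761 score units, against 0.114 to 0.317 in the 13 other windows. Replicate 1 had the higher mean score in all 14 windows. Over bases covered in both lists the mean score was 1.15 in replicate 1 and 0.949 in replicate 2.

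Long blocks of the interior differed in score. Higher scores were found from 764948 to 799511 (1.66 in replicate 1, and 1.45 in replicate 2 over the bases it covered), from 598985 to 631470 (1.47 and 1.18) and from 1166735 to 1202031 (1.38 and 1.17). Comparably long blocks had lower scores from 981401 to 1018018 (0.928 and 0.762) and from 643147 to 679621 (0.968 and 0.930). These 5 blocks had the same order of scores in both lists. The score of a long block thus did not follow from its length alone. Over the 14 windows Spearman's rho between the mean scores of the replicates was 0.925 and between their coverages 0.789, as a description of 2 libraries called on the same sequence.

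The highest and the lowest single scores were not always shared. The highest of replicate 2 was 2.79, on a region of 1429 bp (932430 to 933858) that replicate 1 covered at a score of 1.04 and the combined list at 1.22. Away from the ends, the highest score of replicate 1 lay from 809916 to 814302 (4387 bp, score 2.16), of which replicate 2 covered 59.4% at 1.34. The other leading scores of replicate 1 lay at the ends described above, and those of replicate 2 at the proximal end and at 764916 to 792708. The lowest scores were 0.327 in replicate 1 (1234165 to 1235823) and 0.132 in replicate 2 (1051050 to 1052842). Both were on regions of under 2 kb that the other list also held, at 0.351 in replicate 2 and 0.490 in replicate 1. The 5 lowest regions of each replicate were all shorter than 2 kb.

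The combined list joined neighbouring blocks and filled many gaps. It had 109 regions with a median of 6821 bp over 1191 kb, and 108 gaps with a median of 789 bp. Its longest region ran from 1255488 to 1323898 (68.4 kb, score 1.05), over 8 regions of replicate 1 and 9 of replicate 2, and thus passed over the alternation of scores near the distal end. Of its regions, 95 overlapped both replicate lists, 3 replicate 1 alone, 4 replicate 2 alone and 7 neither. Those 7 measured 1011 to 1501 bp and scored 0.207 to 0.388. All but 1 were shorter than the shortest region of the replicate lists.

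The combined list covered 17.8% of the sequence that was uncovered in both replicates (32.0 kb). It covered 87.7% of the bases found in replicate 1 only and 97.1% of those in replicate 2 only. Of the 56 stretches of at least 1 kb uncovered in both replicates, it covered under 10% of 29, 10 to 50% of 19 and over 50% of 8. Among the 9 longest, it covered none of those starting at 506287, 692159 and 1129344, and 36.2%, 33.3% and 26.6% of those starting at 98942, 1116839 and 89762. Sequence uncovered in all 3 lists came to 147.9 kb. Since it was made from the same libraries, the combined list adds no independent evidence.

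Set beside other H3K9me2-rich sequence, chromosome 4 had a like covered share but more gaps, lower scores and, in the replicate lists, shorter blocks. The sequences compared were the assembled pericentric heterochromatin of chromosome 3 (3LHet and 3RHet, 5.07 Mb) and the most proximal part of arms 2L and 3L, taken at the length of chromosome 4 on each arm (2.70 Mb). Coverage was 81.3% ± 2.41 on chromosome 4, 82.5% ± 3.51 on 3LHet and 3RHet and 76.9% ± 1.45 on proximal 2L and 3L (SD, n = 2 for each). Gaps per 100 kb numbered 10.2 ± 1.57 on chromosome 4, 5.17 ± 1.60 on 3LHet and 3RHet and 5.38 ± 1.44 on proximal 2L and 3L (SD, n = 2 for each). Within each replicate chromosome 4 had the highest density of gaps. Median region length was 5402.5 and 4558 bp on chromosome 4 in replicates 1 and 2, against 11161.5 and 7331.5 bp on 3LHet and 3RHet and 10833 and 6404 bp on proximal 2L and 3L. In the combined list it was 6821 bp on chromosome 4, against 13381 bp on 3LHet and 3RHet but 4617 bp on proximal 2L and 3L.

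The gaps of chromosome 4 were not longer. Their median was 1183 and 1045 bp in replicates 1 and 2, against 1421 and 1133.5 bp on 3LHet and 3RHet and 1484.5 and 1597 bp on proximal 2L and 3L. The longest was 14.1 and 14.5 kb on chromosome 4, against 74.0 and 74.9 kb on 3LHet and 3RHet and 121.3 and 68.1 kb on proximal 2L and 3L. Unsequenced stretches of the assembly were not taken out of these gaps. The weighted mean score was 1.15 and 0.939 on chromosome 4, against 2.10 and 1.74 on 3LHet and 3RHet and 1.88 and 1.51 on proximal 2L and 3L. Chromosome 4 was the lowest in both lists, and no test of these differences was run. Its first 64 kb, at 2.03 and 1.57, lay within the range of those pericentric means.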

How the data were processed

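ChIP-seq was done on nuclei of Oregon-R larvae. The submitters' processing notes name Bowtie 0.12.7, and the deposited coordinates are on FlyBase release 5, per the file headers. The sources used here do not name the caller, its thresholds or the way in which libraries were combined. Each list gives a deposited score per region, which is the authors' enrichment value. The 2 input libraries entered only through the authors' calling.

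Lists were read with Python 3.11.15 and numpy 2.4.6. Covered bases, gaps between neighbouring regions, overlaps of at least 1 bp, values in 3 equal parts and in windows of 100 kb were computed per list, and mean and SD over the 2 replicate lists. The combined list was kept apart. The gap and overlap code was tested on simulated lists. No significance test was run. Alternatives were minimum lengths, merging within 1000 bp, an overlap of at least 50%, the 50% of regions scoring highest, 50 kb windows, 2 equal parts and each replicate alone. Regions and gaps were named by rank of length and of score, plus those in 1 list alone. The members and rules were chosen with earlier results of these data known, and the stretches at the ends, the regions beside long gaps and the interior blocks compared by score after their values were seen. The gene table at hand is on release 6 and was not used.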

Additional observations from a re-analysis of the deposited data

How the results depend on the processing

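Each replicate alone gave 124 to 154 regions, 79.6 to 83.0% coverage, medians of 4558 to 5402.5 bp for regions and 1045 to 1183 bp for gaps, 123 to 153 gaps, a distal minus proximal coverage difference of 1.44 to 2.63 percentage points and a score difference of -0.0427 to 0.00649. Merging within 1000 bp gave 74 regions with a median of 8863.5 bp and 73 gaps with a median of 2020.0 bp. A minimum of 2000 bp gave 78.2% coverage and a median of 6730.2 bp. The 50% of regions with the highest scores gave 69.5 regions on average with a median of 10329.8 bp, 61.1% coverage, and 68.5 gaps with a median of 2924 bp. These shifts in number, length and coverage follow from joining or removing regions. The coverage difference was 1.12 on average with the 50% of regions scoring highest, at -4.17 in replicate 1 and 6.41 in replicate 2, so that its direction turned in replicate 1. With 2 equal parts it was 3.00, and the cause of these changes was not tested. The score difference was 0.0953 with medians over regions, and 0.0444 without the outer 100 kb at either end (chosen after seeing the data). It was higher distally in both lists under these settings, so its direction rests on how scores are summarised and on the ends, and the cause was not tested. Recurring gaps numbered 62 in each list at 50% overlap, 53 in replicate 1 and 56 in replicate 2 when gaps of both lists had to reach 1000 bp, and 29 and 28 at 2000 bp. At 50% overlap 99 regions of replicate 2 were shared. Windows of 50 kb gave a lowest coverage of 43.2% and a highest score of 1.85. Depth is unknown and limits how far a gap can be read as absence of the mark. No paired analysis was possible because the results come from no test. Differences between parts of the chromosome were taken within each replicate list.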

Other observations

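Some gaps were very short. Gaps under 100 bp numbered 9 in replicate 1, of which 4 overlapped a gap of replicate 2, and 10 in replicate 2, of which 1 overlapped a gap of replicate 1. In replicate 1 the one from 1235824 to 1235900 parted regions of score 0.327 and 0.995, and the one from 1202032 to 1202078 parted regions of score 1.38 and 1.03. The median difference in score across these short gaps was 0.332 in replicate 1 and 0.188 in replicate 2, against 0.271 and 0.265 over all gaps. Some gaps that did not overlap were still close: 12 of the 22 non-overlapping gaps of replicate 1 lay within 500 bp of a gap of replicate 2, and 13 of the 52 of replicate 2 lay within 500 bp of a gap of replicate 1. An example is the pair from 393537 to 393564 in replicate 1 and from 393654 to 393691 in replicate 2, so counting by overlap misses some near coincidences.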
